A study of Mus musculus with 8 samples.

Results

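The 10 genes described here encode the transcription factor NRF2 (Nfe2l2), its inhibitor KEAP1 and 8 antioxidant enzymes and proteins, namely Nqo1, Gclc, Gclm, Txn1, Txnrd1, Srxn1, Prdx1 and Gpx4. They were taken by gene name from the 53242 genes of the deposited tables, and all 10 had enough counts to be tested. RNA was sequenced from splenic B cells of 8 to 12-week-old C57BL/6 mice that had spent 24 h in culture with 40 ng/ml IL4 and irradiated CD40LB feeder cells, a fibroblast line that presents CD40 ligand, which were then removed with an H-2Kd antibody. The control genotype was Eif4a1+/+ CD23-cre and the knock-out genotype Eif4a1fl/fl CD23-cre (4A1 KO), so both carried the Cre transgene, which is active from the immature B cells of the spleen onwards, and the floxed allele loses a block of exons of the RNA helicase EIF4A1. Each library came from 1 mouse, with 4 libraries per genotype. Males were numbered 1 and 3 and females 2 and 4 in each genotype, and mice 1 and 2 were in batch A, mice 3 and 4 in batch B. The series' notes exclude replicate 1 of both genotypes for low viability, so the comparisons use replicates 2 to 4 (n = 3 per genotype) unless all 8 libraries are named. Values of replicate 1 or of all 8 libraries are given beside some of them. The culture medium of both genotypes contained 2-mercaptoethanol, a reducing agent.

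Total counts ran from 38488341 to 43210858 in replicates 2 to 4, and were 39890141 and 31727557 in replicate 1 of control and 4A1 KO. The targeted gene Eif4a1 was lower in each 4A1 KO library (700.4 to 843 TPM, a level scaled to transcript length and library size, in replicates 2 to 4, against 933 to 1142 in control), and since the deposited values cover the whole gene, which transcripts the remaining reads came from was not examined. Of the B cell markers, Cd79b, a chain of the B cell receptor complex, had 738 to 842 TPM in the 4 control and 361 to 466 TPM in the 4 4A1 KO libraries, and the T cell, myeloid and erythroid marker lists summed to at most 23.7, 21.8 and 1.41 TPM. The 16 fibroblast markers, which the feeder cells could contribute, summed to 22.4 TPM in control 2 and to between 4.77 and 13.4 TPM in the other 7 libraries. TPM and counts are shares of a library, so fewer transcripts per cell across all genes cannot be told apart from no change.

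NRF2 is a basic leucine zipper factor that is kept low by KEAP1, the adaptor through which a CUL3 ubiquitin ligase marks it for degradation. Oxidants and electrophiles modify cysteines of KEAP1, NRF2 then escapes, pairs with a small MAF protein and binds the antioxidant response element in front of genes for glutathione synthesis, the thioredoxin system and detoxification. Gpx4, which removes lipid hydroperoxides, belongs to the same defence but is not a classical NRF2 target. The level of NRF2 is set largely on the protein, and protein data were not analysed here.

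The core letters of the antioxidant response element, TGACNNNGC, were searched on both strands in the window from 250 bases before to 50 bases after the annotated start of the canonical GENCODE transcript (GRCm39). A match was found in 4 of the 10 genes, Gclm, Txnrd1, Srxn1 and Prdx1, and in 12.5% of the windows of 21757 protein-coding genes (13.9% of the 11423 that were tested here). The 4 matches are shown with 10 bases on either side, because these genes share the element's letters but did not share a direction of change in 4A1 KO B cells. The capitals mark the match, and each sequence is written on the minus strand, opposite to the gene.
Gclm, chr3:122039062-122039090: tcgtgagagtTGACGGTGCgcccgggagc
Txnrd1, chr10:82694938-82694966: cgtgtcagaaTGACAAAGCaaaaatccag
Srxn1, chr2:151947462-151947490: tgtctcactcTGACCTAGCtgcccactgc
Prdx1, chr4:116542653-116542681: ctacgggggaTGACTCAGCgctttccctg
The matches of Gclm, Txnrd1 and Prdx1 lie 54, 65 and 78 bases before the start, and that of Srxn1 lies 28 bases after it. The letters of the Prdx1 match also contain TGACTCA, the AP-1 site, so the match does not distinguish the 2 elements. With the window extended to 1000 bases before the start, Nfe2l2 (262 bases before) and Gpx4 (890 bases before) also held a match, and 30.4% of all protein-coding genes did. A match of letters is not evidence of binding.

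In 4A1 KO B cells 3 of the 10 genes were increased (Nfe2l2, Srxn1 and Gclc) and 1 was decreased (Gpx4) when both an adjusted p below 0.05 and a log2 fold change beyond 0.5 in either direction were asked for. These thresholds were passed upwards by 11.6% and downwards by 13.7% of the 14218 genes tested, 25.3% in all. Gclm was higher, and Keap1 and Prdx1 were lower, at an adjusted p under 0.05 but within the fold threshold, so that 7 of the 10 genes passed the adjusted p alone, as did 53.0% of all genes. For Txn1, Txnrd1 and Nqo1 the test was not passed. The median log2 fold change of the 10 genes was 0.06 and that of all genes tested 0.01. Unless limma is named, adjusted p are those of the quasi-likelihood test of edgeR, adjusted after Benjamini and Hochberg over all genes tested, with batch and sex as covariates.

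**Figure D1:**
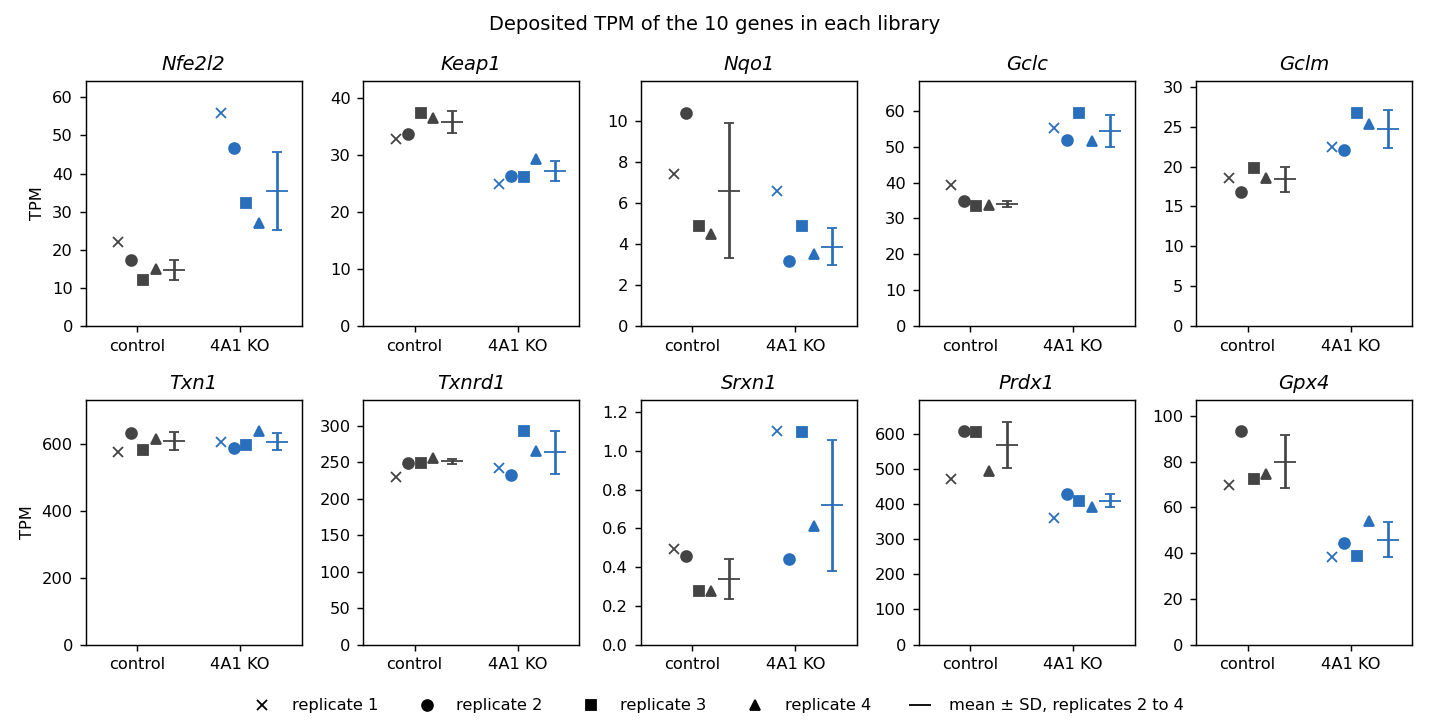
Deposited TPM (vertical axes, each starting at 0) of the 10 genes in the 4 control (grey) and 4 4A1 KO (blue) libraries, with a symbol for each replicate and, beside the points, the mean and SD of replicates 2 to 4. The genotypes do not overlap for Nfe2l2, Keap1, Gclc, Gclm, Prdx1 and Gpx4, and they overlap for Nqo1, Txn1, Txnrd1 and Srxn1.

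**Figure D2:**
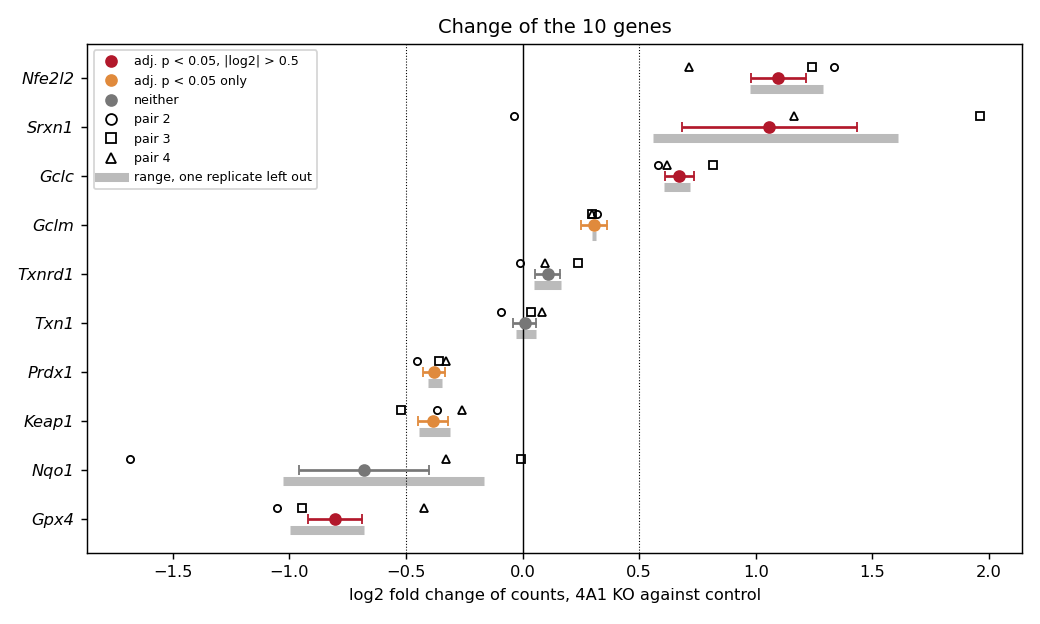
Log2 fold change of counts (4A1 KO against control, horizontal axis) with its standard error for each of the 10 genes, above it the differences of the 3 same-numbered pairs and below it a grey bar for the range when 1 replicate is left out. Dotted lines mark log2 fold changes of -0.5 and 0.5. Nfe2l2 at 1.10 and Gpx4 at -0.80 are the ends of the range, and the pairs of Srxn1 and Nqo1 lie furthest apart.

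Nfe2l2 (ENSMUSG00000015839, chromosome 2, 75504739 to 75534985) had 17.3, 12.1 and 15.0 TPM in controls 2, 3 and 4 and 46.8, 32.3 and 26.9 TPM in 4A1 KO 2, 3 and 4. The means were 14.8 ± 2.62 and 35.3 ± 10.3 TPM (SD, n = 3). Every 4A1 KO library lay above every control library, and the libraries of replicate 1 were the highest of their genotypes (21.9 and 55.9 TPM). Its counts rose by a log2 fold change of 1.10 ± 0.12 (SE, n = 3 mice each, edgeR adjusted p = 9.14e-05), which is 2.14-fold. The log2 differences of the pairs were 1.33, 1.24 and 0.71 in replicates 2, 3 and 4, so the increase was smallest in replicate 4.

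Keap1 (ENSMUSG00000003308, chromosome 9, 21141026 to 21150679) was lower in 4A1 KO B cells. It had 33.6, 37.3 and 36.4 TPM in controls 2 to 4 and 26.3, 26.0 and 29.3 TPM in 4A1 KO 2 to 4, again without overlap, and replicate 1 gave 32.8 and 25.0. The log2 fold change was -0.38 ± 0.07 (SE, n = 3 mice each, edgeR adjusted p = 0.00123), a change of -23.4%. The ratio of Nfe2l2 to Keap1 in TPM was 0.324 to 0.669 in the 4 controls and 0.921 to 2.24 in the 4 4A1 KO libraries. Transcripts of the inhibitor were thus more abundant than those of the factor in every control library, and less abundant in every 4A1 KO library but replicate 4.

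Glutathione synthesis starts with glutamate-cysteine ligase, whose catalytic subunit is encoded by Gclc and whose modifier subunit by Gclm. Gclc (ENSMUSG00000032350, chromosome 9, 77661797 to 77701770) had 34.8, 33.4 and 33.9 TPM in controls 2 to 4 and 51.9, 59.4 and 51.7 TPM in 4A1 KO 2 to 4, and 39.5 and 55.3 TPM in replicate 1. The genotypes were well apart and each varied little. Its log2 fold change was 0.67 ± 0.06 (SE, n = 3 mice each, edgeR adjusted p = 4.38e-05). Gclm (ENSMUSG00000028124, chromosome 3, 122039126 to 122065061) had 16.8, 19.9 and 18.5 TPM in controls 2 to 4, 22.04, 26.7 and 25.3 TPM in 4A1 KO 2 to 4, and 18.5 and 22.5 TPM in replicate 1. It was higher in each pair by nearly the same amount, between 0.30 and 0.32 on the log2 scale, and its log2 fold change was 0.31 ± 0.06 (SE, n = 3 mice each, edgeR adjusted p = 0.0016). The ratio of the catalytic to the modifier transcript was 1.68 to 2.13 in control and 2.04 to 2.46 in 4A1 KO libraries, and although these ranges overlap, the ratio was higher in 4A1 KO in each of the 4 same-numbered pairs (2.13 and 2.46, 2.07 and 2.36, 1.68 and 2.22, and 1.83 and 2.04 in replicates 1 to 4).

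The thioredoxin system passes electrons from NADPH through thioredoxin reductase to thioredoxin and on to peroxiredoxins. Thioredoxin itself, Txn1 (ENSMUSG00000028367, chromosome 4, 57934208 to 57956424), had the highest mean TPM of the 10, although Prdx1 was above it in control 3, with 633, 581 and 614 TPM in controls 2 to 4 and 588, 595 and 637 TPM in 4A1 KO 2 to 4. The genotypes overlapped, and the log2 fold change was 0.01 ± 0.05 (SE, n = 3 mice each, edgeR adjusted p = 0.902), with estimates from -0.03 to 0.06 over the alternatives. Txnrd1 (ENSMUSG00000020250, chromosome 10, 82669785 to 82733546), the cytosolic reductase and a selenoprotein, had 249, 249 and 255 TPM in controls 2 to 4 and 233, 292 and 266 TPM in 4A1 KO 2 to 4. The 4A1 KO libraries lay on both sides of the controls. The log2 fold change was 0.11 ± 0.05 (SE, n = 3 mice each, edgeR adjusted p = 0.129), and over all 8 libraries it was 0.12 with an adjusted p of 0.043, well within the fold threshold.

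Prdx1 (ENSMUSG00000028691, chromosome 4, 116532123 to 116558398), an abundant peroxiredoxin that reduces hydrogen peroxide, had 606, 603 and 493 TPM in controls 2 to 4 and 429, 408 and 390 TPM in 4A1 KO 2 to 4, with 470 and 359 TPM in replicate 1. All 4A1 KO libraries were below all controls. The log2 fold change was -0.38 ± 0.05 (SE, n = 3 mice each, edgeR adjusted p = 1.68e-04). The deposited counts give the pseudogenes Gm21399 and Gm7204, 98.3% and 97.5% identical to Prdx1 over 597 nucleotides, 4.37% and 0.30% as many reads as Prdx1, and with these reads added the log2 fold change was again -0.38.

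Srxn1 (ENSMUSG00000032802, chromosome 2, 151947436 to 151957687) encodes sulfiredoxin, which restores peroxiredoxins that have been over-oxidised, and it had the lowest TPM of the 10 in every library. It had 28, 17 and 17 counts in controls 2 to 4 and 26, 66 and 38 counts in 4A1 KO 2 to 4, and 28 and 55 counts in replicate 1. The 4A1 KO library of replicate 2 was no higher than its control, whereas the other 3 pairs were 1.16 to 1.96 higher on the log2 scale. The log2 fold change was 1.06 ± 0.38 (SE, n = 3 mice each, edgeR adjusted p = 0.0404). It was 0.56 without replicate 3 (adjusted p = 0.285), 1.00 without replicate 4 (0.0606) and 1.10 without the replicate block (0.0653, all from edgeR), so the call rests on both replicates of batch B and on the pairing. The call was also lost with DESeq2 (0.43 after shrinkage, adjusted p = 0.13). Without replicate 2 the log2 fold change was 1.61 (adjusted p = 0.0104), and over all 8 libraries it was 1.13 (0.00804, both from edgeR).

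Gpx4 (ENSMUSG00000075706, chromosome 10, 79883000 to 79892273) fell most of the 10. It had 93.2, 72.5 and 74.4 TPM in controls 2 to 4 and 44.6, 38.7 and 54.0 TPM in 4A1 KO 2 to 4, with 70.0 and 38.4 TPM in replicate 1, so that the genotypes did not overlap. Its log2 fold change was -0.80 ± 0.12 (SE, n = 3 mice each, edgeR adjusted p = 4.60e-04), and the pairs gave -1.05, -0.95 and -0.42 in replicates 2, 3 and 4. The processed pseudogene Gpx4-ps2 is 99.6% identical to Gpx4 over 555 nucleotides and had 726, 601 and 648 counts in controls 2 to 4 and 377, 303 and 417 in the 4A1 KO libraries of the same numbers, 45.3% as many as Gpx4 over the 8 libraries, so the deposited values of the pair may share reads. The pseudogene's own log2 fold change was -0.81, and with its counts added to Gpx4 the log2 fold change was -0.81 (adjusted p = 1.95e-04 from edgeR).

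Nqo1 (ENSMUSG00000003849, chromosome 8, 108113835 to 108129934), a quinone reductase that is widely used as a readout of NRF2, did not pass the test. It had 10.4, 4.91 and 4.50 TPM in controls 2 to 4 and 3.19, 4.89 and 3.51 TPM in 4A1 KO 2 to 4, and 7.44 and 6.59 TPM in replicate 1. Control 2 stood above all other libraries, and it was also the library with the highest sum of fibroblast markers (22.4 TPM, with Col1a1 at 8.59 TPM), whose part in the Nqo1 value was not tested. The log2 fold change was -0.68 ± 0.28 (SE, n = 3 mice each, edgeR adjusted p = 0.0671) and -0.16 without replicate 2 (0.471), whereas without replicate 3 or 4 it was -1.03 (0.00657) and -0.85 (0.0138).

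**Figure D3:**
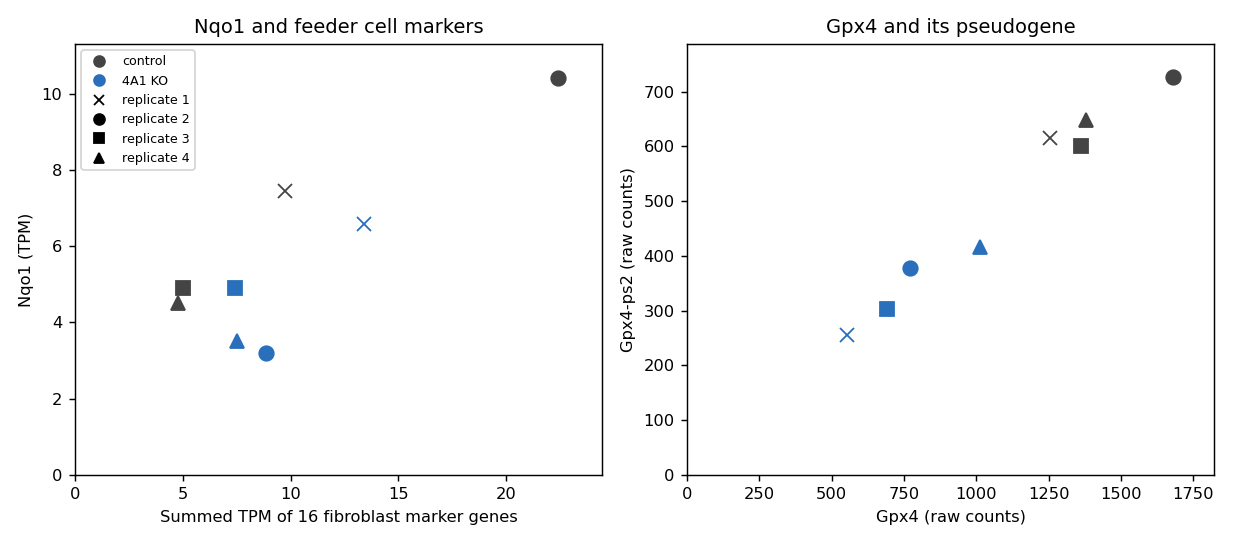
Left, TPM of Nqo1 against the summed TPM of the 16 fibroblast marker genes, and right, raw counts of the pseudogene Gpx4-ps2 against those of Gpx4, 1 symbol per library (control grey, 4A1 KO blue). Control 2 is highest on both axes of the left panel, at 22.4 and 10.4 TPM, and in the right panel the 4 4A1 KO libraries, with at most 1013 counts of Gpx4, lie below the 4 controls on both axes.

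Per transcript length, the 10 genes covered a wide range of levels in control B cells, from 609 ± 26.3 TPM of Txn1 and 567 ± 64.5 of Prdx1 through 251 ± 3.54 of Txnrd1 and 80.1 ± 11.4 of Gpx4 to 6.61 ± 3.30 of Nqo1 and 0.339 ± 0.105 of Srxn1 (SD, n = 3). Between them lay Keap1 and Gclc, whose control libraries overlapped, and Gclm and Nfe2l2, which overlapped as well, as did Txn1 and Prdx1. In 4A1 KO B cells Txn1 (607 ± 26.3 TPM) lay above Prdx1 (409 ± 19.4) in every library. Gclc, Gpx4, Nfe2l2, Keap1 and Gclm followed Txnrd1 in this order of means, from 54.3 ± 4.41 down to 24.7 ± 2.40 TPM, and the libraries of each overlapped those of the next. Nqo1 (3.87 ± 0.902 TPM) and Srxn1 (0.719 ± 0.339) were again the lowest.

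The TPM were tested with limma on log2(TPM + 1) over 12976 genes that averaged 1 TPM or more, which leaves out Srxn1. Nfe2l2, Gclc and Gpx4 passed both thresholds, as did 20.2% of genes, with TPM log2 fold changes of 1.18 for Nfe2l2, 0.66 for Gclc and -0.80 for Gpx4 and adjusted p of 0.00109, 0.00112 and 0.00269 (limma, Benjamini-Hochberg adjustment). At the adjusted p alone 6 of the 9 passed, Keap1, Gclm and Prdx1 being the others, as did 50.7% of genes. Over all 8 libraries the genotypes did not overlap in TPM for 6 of the 10 genes, Nfe2l2, Keap1, Gclc, Gclm, Prdx1 and Gpx4, as for 35.7% of those 12976 genes (two-sided exact permutation test that ignores sex, batch and the same-numbered pairs, each p = 0.0286, the smallest p that 4 libraries against 4 can give). With 3 against 3 the smallest such p is 0.1. A difference of the genotype effect between sexes or between batches reached an adjusted p under 0.05 in 0 of the 10, and in 0% and 0.00704% of all genes (edgeR's test of the interaction over 8 libraries). Before adjustment, 1 of them, Nqo1, had an unadjusted p under 0.05 (edgeR) for sex and 0 had one for batch, beside 2.85% and 4.29% of all genes. No other tool was run for the interactions.

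Genes related to the 10 were examined next in 7 lists, none of which contains any of the 10, beginning with the partners and regulators of NRF2. Of 13 genes on this list 11 could be tested, and 3 (27.3%) were increased and 0 decreased, beside 11.6% and 13.7% of all genes. These 3 encode the small MAF proteins that pair with NRF2 and also with BACH1, its competitor on the same elements. Mafg had 17.96, 22.6 and 25.8 TPM in controls 2 to 4 and 35.7, 52.9 and 48.5 TPM in 4A1 KO 2 to 4, a log2 fold change of 1.07 ± 0.07 (SE, n = 3 mice each, edgeR adjusted p = 1.45e-05). Those of Maff and Mafk were 0.92 and 0.68. Bach1 (0.34, adjusted p = 0.0106 from edgeR) and the related factor Nfe2l1 (0.45, adjusted p = 1.23e-04) were higher within the fold threshold, and 7 of the 11 genes were higher and 0 lower at the adjusted p alone, where 26.3% of all genes were higher. Bach1 had an adjusted p of 0.162 without the replicate block and of 0.0879 without replicate 3 (edgeR, log2 fold changes 0.33 and 0.24), and its TPM in control 2 (8.48) lay above that in 4A1 KO 4 (7.82). The median of the list was 0.34.

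In the list of other genes that NRF2 is known to activate, which was chosen with earlier results known, more were lower than higher. Of 19 tested, 1 was increased (5.26%) and 5 were decreased (26.3%), beside 11.6% and 13.7% of all genes, with a median log2 fold change of -0.27. At the adjusted p alone 4 were higher and 9 lower, beside 26.3% and 26.7% of all genes. Hmox1, heme oxygenase 1, had 7.19, 4.67 and 3.81 TPM in controls 2 to 4 and 7.55, 7.52 and 5.35 in the 4A1 KO libraries of the same numbers. It was 0.41 higher (adjusted p = 0.0403 from edgeR), within the fold threshold there and past it at 0.51 over all 8 libraries and 0.60 without replicate 2. The adjusted p was 0.125 with DESeq2 (0.33), and in edgeR 0.304 without the replicate block (0.39), 0.231 without replicate 3 (0.28) and 0.0879 without replicate 4 (0.37). Slc7a11, the cystine transporter, was nearly absent at 0.03 to 0.15 TPM, and its log2 fold change was -0.34 (adjusted p = 0.667 from edgeR). The decreased genes included Pgd and Tkt, enzymes of the pentose phosphate pathway, a source of NADPH, at -0.56 and -0.50, and the carbonyl reductase Cbr1 at -1.15, which had 19.4, 18.2 and 20.2 TPM in controls 2 to 4 and 7.18, 7.59 and 11.02 in the 4A1 KO libraries of the same numbers. Tkt lay at the fold threshold itself and did not reach it in 4 of its 10 alternatives. G6pdx and Taldo1, also of the pentose phosphate pathway, were not called, at -0.004 (adjusted p = 0.950) and -0.33 (0.00121, both from edgeR).

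Among genes other than Gclc and Gclm that make and use glutathione, 7 of 19 tested (36.8%) were decreased and 1 (5.26%) increased, beside 13.7% and 11.6% of all genes, and the median was -0.55. The decreases included Glrx, a glutaredoxin, with 14.9, 11.4 and 12.4 TPM in controls 2 to 4 and 4.63, 3.36 and 5.88 TPM in 4A1 KO 2 to 4 (log2 fold change -1.41, adjusted p = 9.28e-05 from edgeR), and Gpx1, the main cytosolic glutathione peroxidase, at -0.75. Chac1, which degrades glutathione, fell by 1.07 on the log2 scale, and Gstk1, at under 3 TPM in every library, had -1.28 and was not called without replicate 2 or 3 or with DESeq2. Slc3a2, the heavy chain that carries SLC7A11 and other amino acid transporters to the membrane, was increased by 0.53, but by 0.43 without replicate 3. At the adjusted p alone 2 of the 19 were higher and 10 lower, beside 26.3% and 26.7% of all genes.

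In the list of other thioredoxin and peroxiredoxin genes, without Txn1, Txnrd1, Srxn1 and Prdx1, 1 of 19 genes was increased (5.26%) and 3 were decreased (15.8%), the latter close to the 13.7% of all genes that were decreased, and the median was -0.06. At the adjusted p alone 4 were higher and 8 lower, beside 26.3% and 26.7% of all genes. Txnip, which binds and inhibits thioredoxin, was increased by 0.54 (adjusted p = 1.98e-04 from edgeR), but it was not called without replicate 3 (0.44) or without the replicate block (0.53, adjusted p = 0.0786 from edgeR). The methionine sulfoxide reductases Msrb1 and Msrb2 had -0.63 and -1.46. None of Prdx2 to Prdx6 passed both thresholds, and their log2 fold changes ran from -0.34 to -0.06, beside -0.38 for Prdx1.

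Of 10 genes that produce or remove superoxide and hydrogen peroxide, 1 was increased and 2 were decreased (median -0.28), beside 11.6% and 13.7% of all genes. At the adjusted p alone 1 was higher and 8 were lower, beside 26.3% and 26.7% of all genes. Cat, catalase, had 65.9, 52.6 and 51.6 TPM in controls 2 to 4 and 33.3, 25.0 and 32.6 TPM in 4A1 KO 2 to 4, a log2 fold change of -0.91 ± 0.08 (SE, n = 3 mice each, edgeR adjusted p = 4.28e-05). Cybb, the catalytic subunit of the NADPH oxidase of phagocytes and B cells, was increased by 1.01 (adjusted p = 6.34e-05 from edgeR), from 36.4, 16.2 and 21.2 TPM in controls 2 to 4 to 58.2, 39.6 and 42.4 TPM in 4A1 KO 2 to 4. Ncf4, a cytosolic subunit of the same oxidase, had -0.72. The 10 myeloid markers summed to 8.88 to 21.8 TPM in controls 2 to 4 and to 7.95 to 10.3 TPM in 4A1 KO 2 to 4, and their part in the Cybb value was not tested.

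Gpx4 and Txnrd1 contain selenocysteine, and a further list holds the genes for its insertion and other selenoproteins, without these 2. Some selenoproteins were counted in earlier lists instead, among them Gpx1 (-0.75) and Msrb1 (-0.63), both decreased. Of 15 tested in the further list, 1 was increased and 1 decreased (6.67% each, median 0.14), beside 11.6% and 13.7% of all genes. At the adjusted p alone 9 were higher and 4 lower, beside 26.3% and 26.7% of all genes. Secisbp2, which directs selenocysteine to the ribosome, and Selenos were higher within the fold threshold, at 0.38 and 0.44. Selenoh was decreased at -0.55, but lay within the fold threshold at -0.48 over all 8 libraries and at -0.50 without replicate 2. Among 12 tested genes related to ferroptosis, the death by lipid peroxidation that GPX4 prevents, log2 fold changes ran from -1.14 to 0.96 (median -0.32). Of these genes 0 were increased and 4 (33.3%) were decreased, beside 11.6% and 13.7% of all genes. At the adjusted p alone 0 were higher and 7 lower, beside 26.3% and 26.7% of all genes. Those decreased include the acyl-CoA synthetases Acsl4 (-0.75), which supplies the polyunsaturated lipids that peroxidise, and Acsl3 (-1.14), and Tfrc, the transferrin receptor, with 112, 135 and 160 TPM in controls 2 to 4 and 60.6, 68.4 and 93.1 TPM in 4A1 KO 2 to 4 (log2 fold change -0.93 ± 0.06, SE, edgeR adjusted p = 1.09e-05). Over the 7 lists together 8 genes (7.62% of those tested) were increased and 22 (21.0%) decreased, beside 11.6% and 13.7% of all genes.

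**Figure D4:**
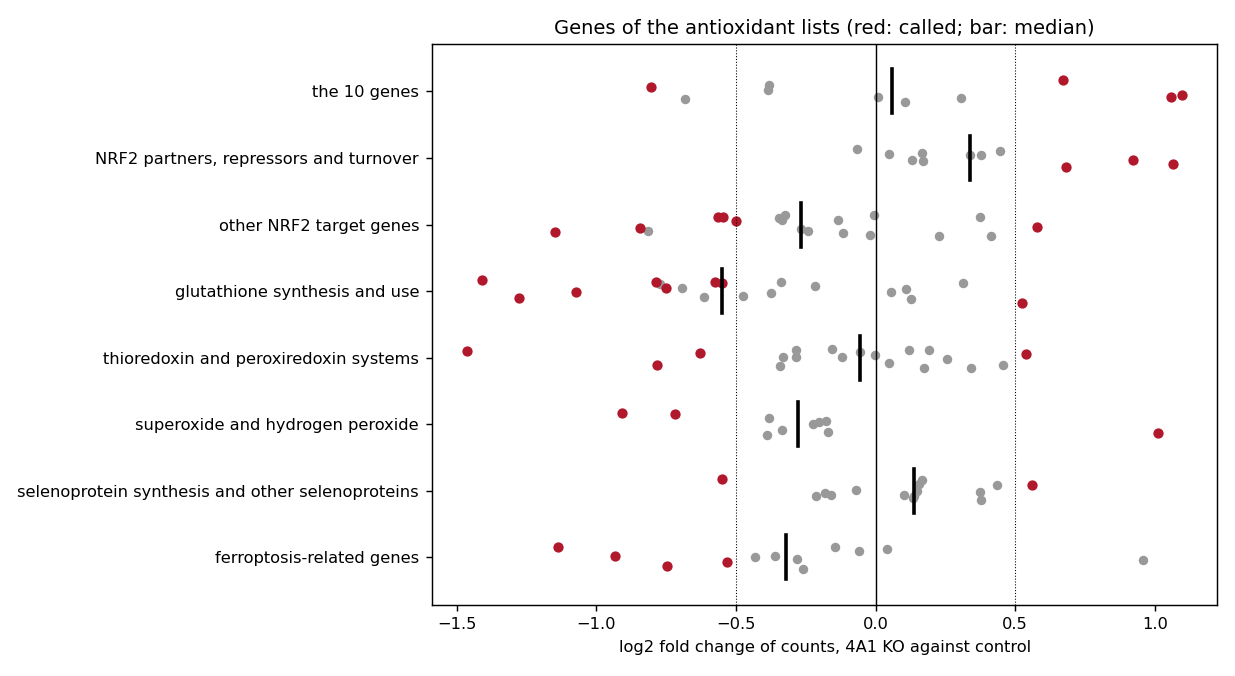
Log2 fold change of counts (4A1 KO against control, horizontal axis) of each tested gene in the 10 genes and in 7 lists of related genes, with called genes in red, a black bar at the median of each list and dotted lines at -0.5 and 0.5. The median is highest for the partners and regulators of NRF2 (0.34) and lowest for glutathione synthesis and use (-0.55).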

How the data were processed

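RNA-seq values of 8 libraries of activated B cells were analysed. Per the labels and methods, the authors trimmed reads with Trim Galore 0.6.6, mapped them to GRCm39 with HISAT2 2.1.0 and deposited raw read counts from Seqmonk (merged isoforms, strand-specific pairs), and TPM from StringTie 2.1.1, which are per transcript length. How multiply mapped reads were counted is not given in the sources used here.

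Counts were filtered with filterByExpr, normalized with TMM and fitted in edgeR 4.0.16 (R 4.3.3) with batch, sex and genotype, which in replicates 2 to 4 equals the replicate number as a block. Same-numbered libraries share sex and batch per the labels, and across genes their deviations from the genotype means correlated at 0.45, 0.38 and 0.30 (other pairs, mean -0.19). TPM were tested with limma 3.58.1 on log2(TPM + 1). P-values are two-sided. Both fits were tested on simulated data with 200 changed genes. Of these edgeR recovered 194, with 4 false calls, and limma recovered 200, with 0 false calls. The simulated libraries held no batch, sex or pair effects and far fewer changed genes than the real ones, so error rates in the real data were not tested. Pseudogenes were matched with blastn 2.17.0 (at least 90% identity over 200 nucleotides). Coordinates are from GENCODE M39 (GRCm39), which holds 52647 of the 53242 gene identifiers.

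The 10 genes and the lists were chosen with earlier results of these data known. Besides the 10, genes named are the 3 with the smallest adjusted p in each list, those called beyond a log2 fold change of 1, and Hmox1, Slc7a11, Bach1 and the small MAF genes. Prdx2 to Prdx6, G6pdx, Taldo1 and the pseudogenes were named after their values were seen. The fits were repeated with size factors of DESeq2, with upper quartile scaling, in DESeq2 1.42.0 itself with normal shrinkage, without the filter, without the replicate block, with all 8 libraries, and with each replicate left out in turn. The TPM test was also run with a pseudocount of 0.1 and without its filter. Adding pseudogene counts was chosen after the data were seen. Among the 10 genes, counts limit precision for Srxn1 most, and standard deviations are between libraries. The proteome was not analysed here.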

Additional observations from a re-analysis of the deposited data

How the results depend on the processing

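Of the 10 genes, 4 were called in the counts, and 3 to 5 were under the alternatives. Nfe2l2, Gclc and Gpx4 were called in every alternative run, with log2 fold changes of 0.97 to 1.29, 0.60 to 0.72 and -0.999 to -0.68 in the counts and 1.08 to 1.36, 0.58 to 0.70 and -0.97 to -0.67 in the TPM. Keap1, Gclm and Prdx1 kept their direction and stayed within the fold threshold in the counts, at -0.45 to -0.31, 0.29 to 0.33 and -0.41 to -0.34, whereas in the TPM without replicate 4 Prdx1 passed it at -0.53. Srxn1 was not called with DESeq2 (0.43 after shrinkage, adjusted p = 0.13), without the replicate block, and without replicate 3 or 4, and Nqo1 was called without the low-count filter (-0.68) and without replicate 3 or 4. The estimate for Txn1, near 0, changed sign without replicate 3 (-0.00076) and 4 in the counts, where leaving out a replicate gave -0.0285 to 0.0581, and in the TPM with all 8 libraries (0.0147) and without replicate 2 (-0.0349 to 0.0439). So did that of Txnrd1 in the TPM without replicate 3 (-0.0207 to 0.143) and that of Slc7a11 without replicate 2 (-0.825 to 0.531), and none of these passed the test. Of all genes, 3596 were called, 3000 without the replicate block, 2592 with DESeq2, and 3083 to 3821 when a replicate was left out. For 27 other genes named from the lists, 252 of 269 estimates kept direction and call. Without the replicate block the calls of Srxn1 and Txnip at both thresholds were lost, and Bach1 and Hmox1 no longer passed the adjusted p alone. Among the 10 and these 27, 0 others changed side of either threshold, and the alternatives were not tabulated for Prdx2 to Prdx6, G6pdx and Taldo1.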

Other observations

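In both genotypes the library of replicate 1, excluded for low viability, had the highest TPM of Nfe2l2 (21.9 in control and 55.9 in 4A1 KO), Maff (25.0 and 39.3) and Mafk (77.7 and 121). These genes were picked out after their values were seen. For Maff and Mafk the control library of replicate 1 lay above at least 1 4A1 KO library of another replicate, so that the genotypes overlapped over the 8 libraries although they did not in replicates 2 to 4. For Nfe2l2 both batch A libraries of each genotype (17.3 and 21.9 TPM in control, 46.8 and 55.9 in 4A1 KO) lay above both batch B libraries (12.1 and 15.0, 32.3 and 26.9), and the replicate 1 pair differed by 1.32 on the log2 scale of counts, within the span of the other pairs.

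Keap1, Gpx4 and Prdx1 in replicate 1 had log2 differences of -0.36, -0.84 and -0.30 between 4A1 KO and control, and Gclc and Gclm had 0.50 and 0.28, each in the direction of the other pairs.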
